A study of Mus musculus with 15 samples.

Results

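Heat shock proteins and chaperones were followed allele by allele in mouse organoids that model the developing cerebral cortex. The genes were taken by symbol among autosomal genes: the Hspa, Hspb, Hspd, Hspe, Hsph and Hsp90 families, the J protein families Dnaja, Dnajb and Dnajc, and the subunits of the cytosolic chaperonin (Tcp1 and Cct2 to Cct8), without pseudogenes named as such. This choice was made with earlier results of these data known. Of 44260 genes in the table, 84 matched, and 72 of these reached a mean value of 10 over the 6 allele columns and are described here. Just inside that limit were Cct6b at a mean of 10 and Dnajb13 at 10.2, and just outside it Hspb7 at 7.17 and Hspb1 at 4.83.

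The organoids were grown from SpretB6 lines, whose cells carry a genome copy from C57Bl/6J, the standard laboratory strain (B6), and a copy from Mus spretus (Spret), a wild-derived mouse. There were 3 libraries, titled C1, C2 and C3 and called libraries 1, 2 and 3, at day 12 according to the name of the deposited table, with no treatment group and no control group. A further 12 samples in the series, induced pluripotent stem cells of 4 crosses, were not analysed here. Whether the 3 libraries are separate cultures is not stated, so p-values cover only the spread among them, which may be technical. The reverse cross was not analysed here, so strain and parent of origin cannot be told apart.

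Every gene had 1 value per allele in each library, a normalized read number rounded to a whole number. Both alleles together summed to 5039845, 4502664 and 5666990 in libraries 1, 2 and 3, so library 3 had 1.19 times the mean total of the others. The tissue label names epiblast stem cells. The 8 pluripotency markers together summed to 103, 157 and 51, with Utf1 at 0 in library 3, while 6 genes of the cortical excitatory lineage together stood at 18208, 17734 and 17537. Of these sums, 8725, 8041 and 9889 came from Map2, a gene of neurons in general. Single genes differed between libraries: Neurod6 was lowest in library 3 (4730, 4871 and 3177) and Tbr1 highest there (245, 234 and 508). Markers of choroid plexus and hem were highest in library 1, at 3475 against 948 and 595 over 6 genes. In bulk samples, fewer cells of a type and less RNA per cell cannot be told apart.

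Chaperones help other proteins reach and keep their folded state. HSP70 proteins bind and release short unfolded stretches in a cycle driven by ATP, J proteins deliver the substrates and start that cycle, nucleotide exchange factors such as the HSP110 proteins end it, HSP90 acts late on kinases, receptors and other client proteins, and chaperonins enclose a substrate in a ring-shaped chamber. The cytosolic chaperonin, TRiC or CCT, folds actin and tubulin, which a growing neuron makes in bulk. Many of these genes are switched on by the heat shock factor, a transcription factor released when unfolded proteins accumulate, and those of the endoplasmic reticulum by the unfolded protein response.

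The genes for chaperones split between the alleles in small steps. The allelic ratio is log2(Spret value + 1) minus log2(B6 value + 1), so positive ratios are higher from Spret. A gene is called where limma gave an adjusted p under 0.05 in a fit over all tested genes, with library and allele as terms. Of the 72 members, 25 were called, 8 higher from Spret and 17 higher from B6, which is 34.7% against 28.4% of 15456 autosomal tested genes. By direction, the background was 7.78% toward Spret and 20.7% toward B6. Ratios of the members ranged from -1.0 for Cct5 to 1.07 for Dnaja4, with a median of -0.07 beside -0.13 over autosomal genes. Only 8 members were both called and at least 1.5-fold apart, in a background of 15.8%. The B6 and Spret values of 19 members did not overlap across libraries, with 23.8% of autosomal genes in the same position.

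The general lean of -0.13 toward B6 bears on the weaker calls. The rule by which a read was assigned to B6 or Spret is not given in these sources, and its part in the lean was not tested. When each library's ratios were centred on the autosomal median, 25 members were again called, now 15 toward Spret and 10 toward B6, against backgrounds of 26.8%, 13.3% and 13.5%. The calls shared by both scalings were 18. Dnajb1, Dnajb4, Dnajc15, Dnajc17, Dnajc19, Hspa13 and Hsp90ab1 were no longer called after centring, and Hsph1, Hspa4l, Cct8, Dnajc3, Dnajc5, Dnajc7 and Dnajc10 were called toward Spret only after it. Without the pairing of alleles within a library, limma called 7 members (9.72%), with 7.03% of autosomal genes called, so calls fell among genes in general.

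**Figure D1:**
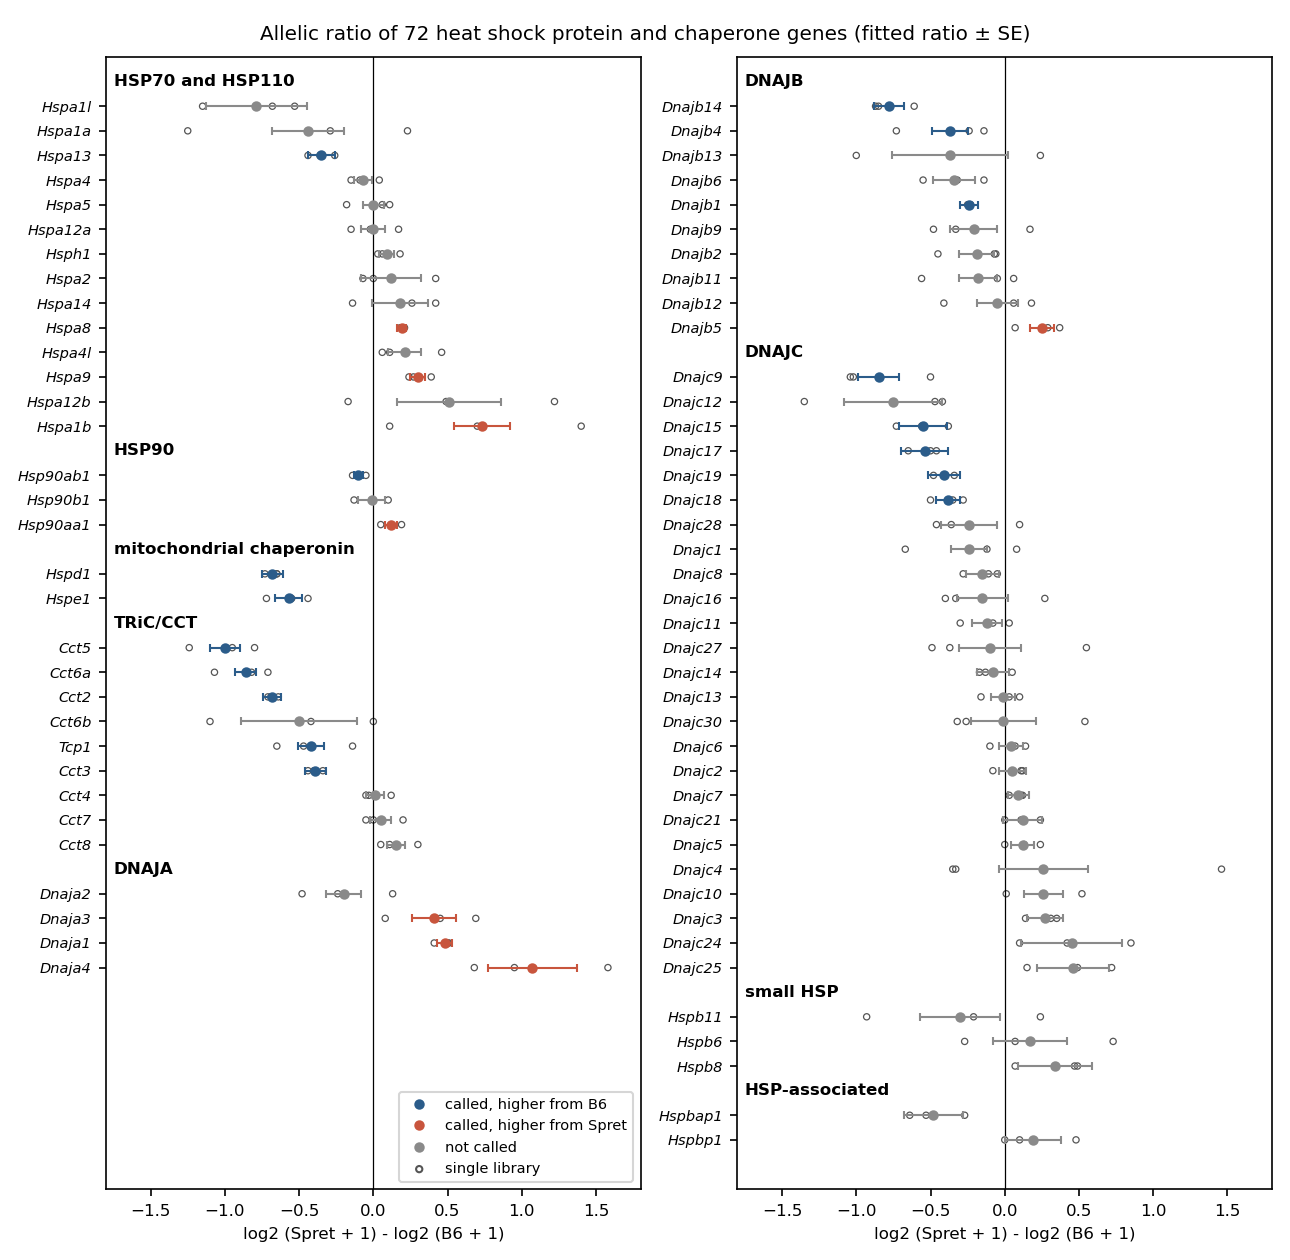
Allelic ratio of each of the 72 members, grouped by family. Filled points are fitted log2 ratios with bars of 1 SE, open points the 3 single libraries, and colour marks the 25 genes called, of which 17 lie left of 0 (B6) and 8 right of it (Spret).

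Chaperonin genes were called toward B6 in several cases, and never toward Spret before centring. The CCT ring is built from 8 different subunits, and 5 of their genes were higher from B6 while 3 were not called. After centring, 5 of the 8 were called toward B6 and 1 toward Spret. Among autosomal genes 20.7% were called toward B6, or 13.5% with centred ratios. Cct5, the epsilon subunit, on chromosome 15 (31590800 to 31601804, mm10), read 409, 369 and 384 from B6 and 211, 156 and 220 from Spret in libraries 1, 2 and 3. The highest Spret value thus lay well below the lowest B6 value. Its ratio was -1.0 ± 0.10 (SE, limma adjusted p = 1.16e-06), a 1.99-fold difference.

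Cct6a, the zeta subunit, on chromosome 5 (129786998 to 129846371), read 859, 832 and 845 from B6 and 487, 397 and 517 from Spret. The B6 values were nearly level across libraries, and the alleles again did not overlap, with a ratio of -0.86 ± 0.07 (limma adjusted p = 2.13e-07). Its exons share 452 bases with the opposite-strand gene Psph, whose reads there cannot be told apart from its own without strand. Cct2, the beta subunit and the ring gene with the highest value, on chromosome 10 (117051001 to 117063814), read 1094, 921 and 979 from B6 and 668, 569 and 627 from Spret. That is a ratio of -0.68 ± 0.06 (limma adjusted p = 1.73e-07). Library ratios of Cct2 lay between -0.71 and -0.64.

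The gamma subunit gene Cct3 and the alpha subunit gene Tcp1 leaned the same way by less. Cct3 read 507, 396 and 476 from B6 and 384, 291 and 376 from Spret, with a ratio of -0.39 ± 0.07 (limma adjusted p = 0.000734). Tcp1 read 455, 387 and 486 from B6 and 413, 279 and 310 from Spret, and here the alleles overlapped, since Spret in library 1 exceeded B6 in library 2. Its ratio was -0.42 ± 0.09 (limma adjusted p = 0.00284), and the call was lost without library 3 (adjusted p = 0.06). Tcp1 exons share 571 bases with Acat3 and 141 with Mrpl18, both on the other strand.

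The remaining ring genes stayed near equal shares. Cct4, the delta subunit, read 648, 504 and 652 from B6 and 634, 486 and 709 from Spret, a ratio of 0.01 with a 95% interval of -0.12 to 0.15. Cct7, the eta subunit, read 634, 510 and 562 against 614, 510 and 646, with an interval of -0.09 to 0.20. Cct8, the theta subunit, read 747, 545 and 687 from B6 and 808, 670 and 711 from Spret. It was higher from Spret in 3 of 3 libraries, at 0.15 ± 0.06 (limma adjusted p = 0.0843), and was called toward Spret with centred ratios (0.28, adjusted p = 0.00437). The interval of Cct4 does not reach the ratio of any of the 5 genes called toward B6, and whether subunits differ from each other was not tested as such.

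Summed over the 8 genes, the ring gave 5353, 4464 and 5071 from B6 and 4219, 3358 and 4116 from Spret. That is a mean log2 ratio of -0.35 ± 0.06 (SD, n = 3). Over all genes, the sums were 2701847, 2413876 and 3027078 from B6 and 2337998, 2088788 and 2639912 from Spret. Those totals leaned toward B6 as well. Taken gene by gene, the median ratio of the 8 ring genes was -0.41, beside -0.13 over autosomal genes. The ring genes lie on chromosomes 3, 5, 6, 10, 11, 15, 16 and 17, one on each. Cct6b, a related subunit known from testis, read 14, 15 and 7 from B6 and 6, 11 and 7 from Spret, and was not called (-0.50 ± 0.39).

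The mitochondrial chaperonin consists of Hspd1 (HSP60), which forms the folding chamber, and Hspe1 (HSP10), its lid. Both genes were higher from B6. Hspd1 read 616, 523 and 609 from B6 and 392, 314 and 387 from Spret, a ratio of -0.68 ± 0.07 (limma adjusted p = 1.84e-06). Hspe1 read 340, 316 and 333 from B6 and 232, 232 and 202 from Spret, a ratio of -0.57 ± 0.09 (limma adjusted p = 0.000179). In neither gene did the alleles overlap. The genes lie head to head on chromosome 1, Hspd1 on the minus strand (55077835 to 55088243) and Hspe1 on the plus strand (55088132 to 55091307). Their annotated spans overlap by 112 bases, and since the use of strand in counting is not given, reads from that stretch cannot be told apart.

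**Figure D2:**
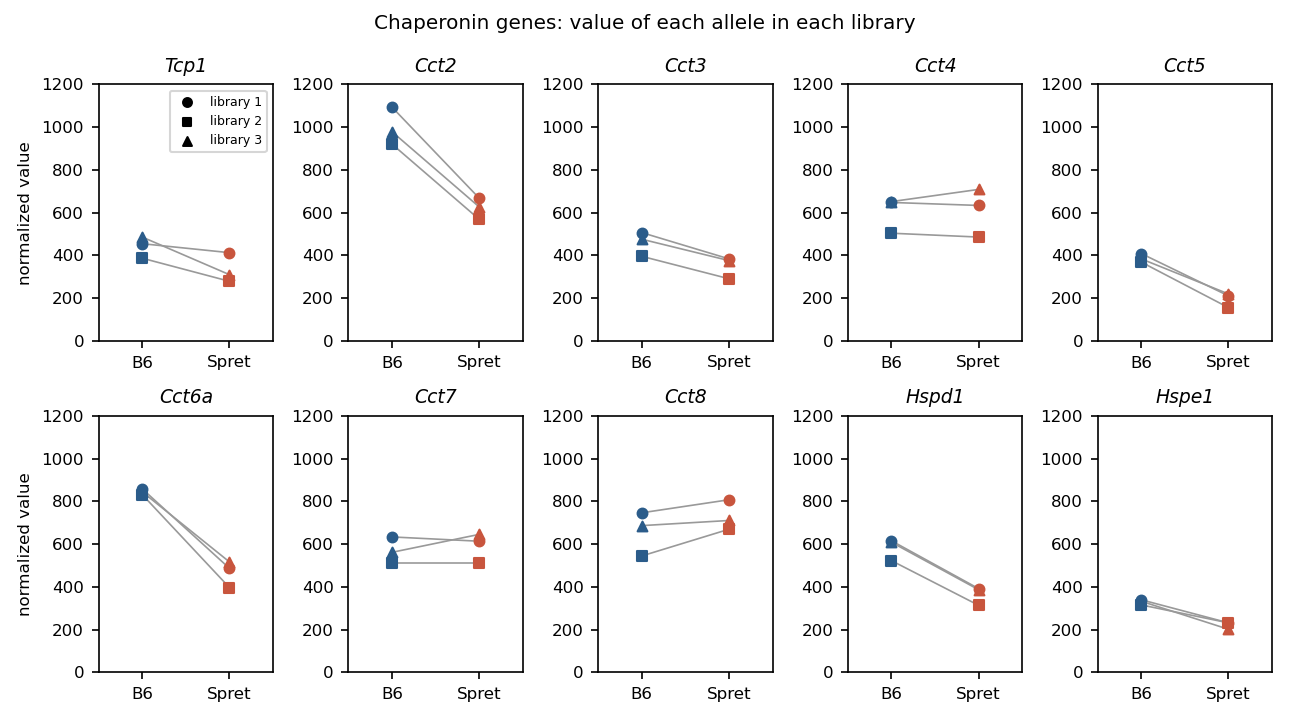
Value of the B6 and the Spret allele (normalized value, vertical axis) for the 8 ring genes and the mitochondrial pair, with a line joining the alleles of each library. Lines fall from B6 to Spret in every library for Cct2, Cct3, Cct5, Cct6a, Tcp1, Hspd1 and Hspe1, and run near level for Cct4 and Cct7.

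Among the HSP70 and HSP110 genes, 4 of 14 were called, 3 toward Spret and 1 toward B6, or 5 and 0 with centred ratios. The 4 calls were 28.6% of the family, the same level as the 28.4% of autosomal genes. By direction the background was 7.78% toward Spret and 20.7% toward B6, or 13.3% and 13.5% with centred ratios. Hspa8, the constitutive cytosolic HSP70 that also strips clathrin from vesicles, had the highest level per length of all members, 3747 ± 884 summed values per kilobase of exon (SD, n = 3). Reads enter only where they could be assigned to an allele, so such levels also depend on how many differences a gene carries. Hspa8 read 7265, 5919 and 9351 from B6 and 8327, 6683 and 10798 from Spret. Spret exceeded B6 in each library by nearly the same ratio, 0.20, 0.18 and 0.21, although the level moved between libraries by much more. The fitted ratio was 0.19 ± 0.03 (limma adjusted p = 0.000101), a 1.14-fold difference.

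Hspa9, the mitochondrial HSP70 that pulls imported proteins into the matrix, read 910, 794 and 971 from B6 and 1192, 937 and 1174 from Spret. It was higher from Spret in 3 of 3 libraries, at 0.30 ± 0.05 (limma adjusted p = 0.00062). Hspa13, an HSP70-like protein of the microsomes, read 250, 222 and 242 from B6 and 184, 185 and 188 from Spret, with no overlap and a ratio of -0.35 ± 0.09 (limma adjusted p = 0.011). That call was lost without library 1 (adjusted p = 0.107) and without library 3 (0.0663).

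Other abundant genes of the group were close to balanced. Hspa5 (BiP), the HSP70 of the endoplasmic reticulum and a marker of its stress response, read 566, 390 and 644 from B6 and 613, 408 and 568 from Spret, with a 95% interval of the ratio from -0.16 to 0.15. Hspa4, an HSP110-type exchange factor, read 861, 892 and 866 against 883, 803 and 814, with an interval of -0.19 to 0.05. Hsph1 (HSP105), the stress-inducible HSP110, read 1033, 717 and 1649 from B6 and 1079, 731 and 1866 from Spret. Its ratio of 0.09 ± 0.05 was not called (limma adjusted p = 0.212), and with centred ratios it was (0.21, adjusted p = 0.00602).

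The inducible HSP70 genes Hspa1a and Hspa1b encode the major HSP70 made after heat shock and are near copies of each other. They lie on the minus strand of chromosome 17, Hspa1b at 34956436 to 34959238 and Hspa1a at 34969190 to 34972156, 9.95 kilobases apart. Their coding sequences in GENCODE transcripts differ at 8 of 1923 aligned bases (99.6% identity), against 83.3% between Hspa1a and the neighbouring Hspa1l and 74.5% between Hspa1a and Hspa8. The 250 bases before their start sites, shown because the copies match there too, differ at 3 positions (98.8% identity). Capitals mark a heat shock element, written as GAANNTTC. The sequences come from RefSeq on GRCm38.p6, the minus strand of chr17:34972157-34972406 for Hspa1a and of chr17:34959239-34959488 for Hspa1b, and neither stretch overlaps a GENCODE exon.
Hspa1a: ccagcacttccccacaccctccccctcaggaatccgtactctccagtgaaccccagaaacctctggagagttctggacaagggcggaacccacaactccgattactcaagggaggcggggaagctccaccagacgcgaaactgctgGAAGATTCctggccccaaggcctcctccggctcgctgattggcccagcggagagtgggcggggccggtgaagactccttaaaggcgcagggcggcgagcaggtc
Hspa1b: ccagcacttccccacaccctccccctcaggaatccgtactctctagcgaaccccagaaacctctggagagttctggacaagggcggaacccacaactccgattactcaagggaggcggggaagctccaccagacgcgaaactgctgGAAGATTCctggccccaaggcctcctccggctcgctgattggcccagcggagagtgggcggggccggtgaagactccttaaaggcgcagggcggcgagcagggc
In both copies the element begins 104 bases before the start. Values of each copy are uncertain, since reads from the shared sequence could be split between them or lost, and Hspa1a also shares 564 exon bases with the opposite-strand Gm20481.

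Hspa1b read 62, 29 and 257 from B6 and 101, 78 and 277 from Spret. Spret was higher in 3 of 3 libraries, with ratios of 0.70, 1.40 and 0.11, and the fitted ratio was 0.73 ± 0.19 (limma adjusted p = 0.00967). Library 2 held the widest gap and library 3 the narrowest. The call was lost without library 1 (adjusted p = 0.105) and without library 2 (0.0732).

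Hspa1a read 49, 34 and 215 from B6 and 40, 40 and 90 from Spret, so B6 rose above Spret by far in library 3 while the alleles were close in the others. Its ratios were -0.29, 0.23 and -1.25, and the fitted ratio of -0.44 ± 0.24 was not called (limma adjusted p = 0.181), although it was without library 2 (adjusted p = 0.0205). Summed over both copies, the values were 111, 63 and 472 from B6 and 141, 118 and 367 from Spret. The summed ratio changed sign between libraries, at 0.34, 0.89 and -0.36, and so showed no common direction.

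**Figure D3:**
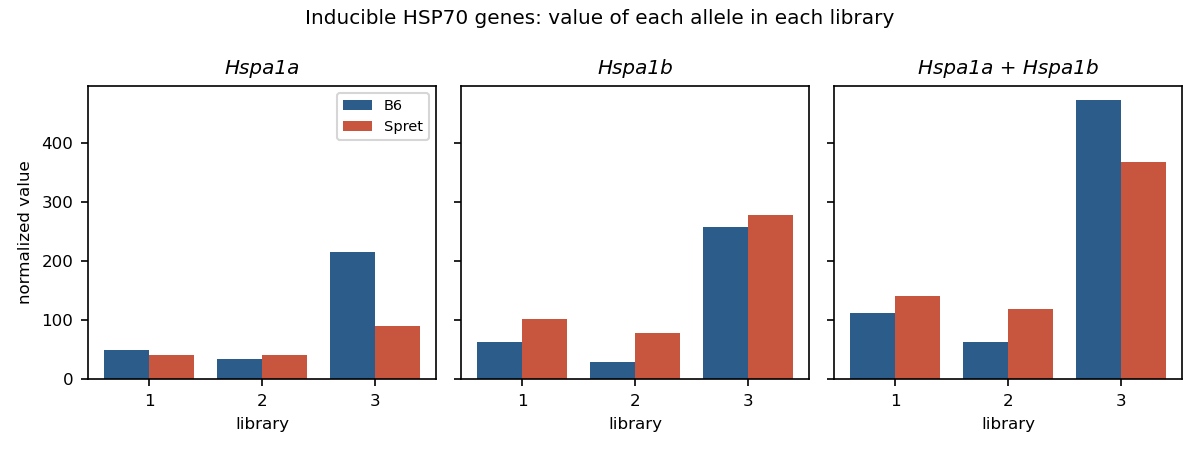
Values of Hspa1a, Hspa1b and their sum in the 3 libraries (normalized value, vertical axis), B6 and Spret side by side. Library 3 stands above the others in each panel, and the B6 bar of Hspa1a is the one that most exceeds its partner there, 215 against 90.

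The cytosolic HSP90 genes followed Hspa8 as the members highest per length, Hsp90ab1 at 3548 ± 404 and Hsp90aa1 at 2003 ± 461 summed values per kilobase of exon. Their coding sequences are 76.2% identical. Hsp90aa1, the inducible form, read 3917, 2883 and 4500 from B6 and 4058, 3130 and 5137 from Spret, higher from Spret in 3 of 3 libraries at 0.12 ± 0.04 (limma adjusted p = 0.0234). Hsp90ab1, the constitutive form, read 5883, 4704 and 5915 from B6 and 5342, 4543 and 5530 from Spret, lower from Spret in 3 of 3 libraries at -0.10 ± 0.03 (adjusted p = 0.0375). These are differences of 1.09-fold and 1.07-fold. The call of Hsp90aa1 was lost without library 2 (adjusted p = 0.0892) and without library 3 (0.185), and that of Hsp90ab1 without any one library (0.0622 to 0.218). With centred ratios Hsp90aa1 stood at 0.24 (adjusted p = 0.000116) and Hsp90ab1 at 0.03 (adjusted p = 0.567). Hsp90b1 (GRP94), the form of the endoplasmic reticulum, read 273, 239 and 267 against 292, 219 and 266, with a 95% interval from -0.20 to 0.18.

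J proteins made up 39 of the 72 members, and 12 were called, 4 toward Spret and 8 toward B6, or 8 and 3 with centred ratios. The 12 calls were 30.8% of these members, beside 28.4% of autosomal genes, 7.78% toward Spret and 20.7% toward B6. With centred ratios that background was 13.3% toward Spret and 13.5% toward B6. All 4 calls toward Spret lie in the DNAJA and DNAJB families. Dnaja1, an abundant partner of cytosolic HSP70, on chromosome 4 (40722150 to 40737149), read 904, 784 and 810 from B6 and 1205, 1120 and 1144 from Spret. The alleles did not overlap, and the ratio of 0.48 ± 0.05 (limma adjusted p = 5.43e-06) held in 3 of 3 libraries. Dnaja1 shares 608 exon bases with the opposite-strand Smu1. Dnaja3, the mitochondrial J protein, read 79, 75 and 125 against 128, 103 and 132, at 0.41 ± 0.15 (adjusted p = 0.0479). Its call was lost without library 1 (adjusted p = 0.327) and without library 2 (0.118).

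Dnaja4 was low, at 15, 9 and 19 from B6 and 30, 29 and 31 from Spret, with a ratio of 1.07 ± 0.30 (limma adjusted p = 0.0146). Its call was lost without library 1 (adjusted p = 0.0803) and without library 2 (0.0833), and 1581 of its exon bases are shared with Wdr61 on the other strand, so its values are uncertain. Dnaja2, another cytosolic partner of HSP70, read 201, 171 and 153 against 144, 145 and 167 and was not called (-0.20 ± 0.12).

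In the DNAJB family, 3 of 10 were called toward B6 and 1 toward Spret, or 1 and 1 with centred ratios. Before centring, calls in either direction came to 40% of the family, beside 28.4% of autosomal genes, 20.7% toward B6 and 7.78% toward Spret. After centring that background was 13.5% toward B6 and 13.3% toward Spret. Dnajb14, a J protein of the endoplasmic reticulum membrane, on chromosome 3 (137867675 to 137916557), read 216, 237 and 253 from B6 and 118, 131 and 165 from Spret. Its ratio was -0.78 ± 0.10 (limma adjusted p = 4.6e-05), with no overlap of alleles. Dnajb1 (HSP40), the stress-inducible partner of HSP70, read 597, 417 and 848 from B6 and 504, 355 and 714 from Spret, with library ratios of -0.24, -0.23 and -0.25. The allelic gap of Dnajb1 was thus nearly the same in each library while its level was not, and the fitted ratio was -0.24 ± 0.06 (adjusted p = 0.00924). Its call was lost without library 1 (adjusted p = 0.0709) and without library 3 (0.0699). Dnajb4 stood at -0.37 ± 0.12 (adjusted p = 0.0367) and Dnajb5 at 0.25 ± 0.08 (adjusted p = 0.0363). Dnajb4 lost its call without any one library (0.06 to 0.267), and Dnajb5 without library 2 (0.185) and without library 3 (0.182).

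The DNAJC family is the most varied, with J domains attached to proteins of many kinds. Of its 25 members, 5 were called, all toward B6, and limma called 0 toward Spret, where 1 passed an unadjusted p of 0.05. With centred ratios 4 were called toward Spret and 2 toward B6. The calls before centring were 20% of the family, beside 28.4% of autosomal genes, 20.7% toward B6 and 7.78% toward Spret. After centring the background was 13.3% toward Spret and 13.5% toward B6. Dnajc9, a chaperone of histones H3 and H4, read 196, 165 and 135 from B6 and 96, 80 and 95 from Spret, a ratio of -0.85 ± 0.14 (limma adjusted p = 0.000247) without overlap. Dnajc18 read 313, 309 and 375 against 246, 254 and 265 (-0.38 ± 0.08, adjusted p = 0.0035, and 0.0567 without library 3). Dnajc15 and Dnajc19, which serve protein import into mitochondria, stood at -0.55 ± 0.16 (adjusted p = 0.0173) and -0.41 ± 0.11 (adjusted p = 0.0101). Dnajc17, a protein linked to splicing, stood at -0.54 ± 0.16 (adjusted p = 0.0207). The calls of Dnajc15, Dnajc17 and Dnajc19 were lost without library 1 (adjusted p = 0.0606, 0.149 and 0.0902) and without library 3 (0.157, 0.0893 and 0.0551).

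The members of this family with the highest summed values were not called. Dnajc7, which carries substrates between HSP70 and HSP90, read 444, 334 and 372 from B6 and 483, 361 and 381 from Spret. Dnajc5 (cysteine string protein), a chaperone of synaptic vesicles, read 309, 287 and 376 against 366, 287 and 411. Dnajc6 (auxilin), which recruits Hspa8 to clathrin coats in neurons, read 290, 295 and 388 against 270, 310 and 428. Their ratios were 0.09, 0.12 and 0.04, and the first pair was called toward Spret with centred ratios (adjusted p = 0.0393 and 0.0316).

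Small heat shock proteins, which hold unfolded proteins without using ATP, were scarce. Of 8 matching genes, 3 reached the limit, and limma called 0 of them, with 0 at an unadjusted p of 0.05. Hspb8 read 37, 20 and 21 from B6 and 39, 28 and 30 from Spret, Hspb6 34, 28 and 40 against 28, 47 and 42, and Hspb11, in fact a subunit of the transport machinery of cilia, 27, 36 and 39 against 32, 31 and 20. Hspb1 (HSP25), the best known of the family, gave values of at most 10 in any column. The symbol rule also took in Hspbp1, an exchange factor of HSP70, and Hspbap1, neither of them called (0.19 ± 0.19 and -0.48 ± 0.20).

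By compartment, the calls are read beside the autosomal background of 28.4% called in either direction and a median ratio of -0.13. By direction that background was 20.7% toward B6 and 7.78% toward Spret, or 13.5% and 13.3% with centred ratios. Of 10 mitochondrial members, 6 were called, Hspa9 and Dnaja3 toward Spret and Hspd1, Hspe1, Dnajc15 and Dnajc19 toward B6, with a median ratio of -0.18. Of 12 members of the endoplasmic reticulum, 2 were called (16.7%), Hspa13 and Dnajb14, both toward B6, with a median of -0.10. That share lay below the background, and the median leaned toward B6 no more than the background did. With centred ratios the mitochondrial calls were 2 toward each allele, and those of the endoplasmic reticulum 2 toward Spret and 1 toward B6. Targets of the heat shock factor here are a list of members taken from textbook accounts, drawn up with earlier results of these data known. Hspb1 was on that list but fell below the limit. Of 12 measured targets of the heat shock factor, 4 were called toward Spret (Hspa8, Hspa1b, Hsp90aa1 and Dnaja1) and 4 toward B6 (Hspd1, Hspe1, Dnajb1 and Hsp90ab1), or 6 and 2 with centred ratios.

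The promoters of these genes were searched for the elements of both stress responses. RefSeq promoter windows of 300 bases, from 250 before to 50 after a start, were found for 60 of the 72 members. A heat shock element, searched on both strands as GAANNTTC or TTCNNGAA, was present in windows of 16 members, or 22.8% of their 79 windows beside 15.1% of 32851 windows of all genes. At least 2 matches, overlapping ones included, were held by 8.86% of the members' windows and 1.96% of all windows. The members' windows with at least 2 belong to 5 of the 60 genes, and several overlap, so that the same match can be counted again. Windows of Hsph1 overlap each other, as do those of Dnajb6, and a window of Hspd1 covers nearly the same bases as that of Hspe1. Among the targets of the heat shock factor, 7 of 9 with a window had a match. That counts genes, some with several windows, so it cannot be set beside the shares of windows. The matches are not all separate, since they include Hspd1 with Hspe1 and the near copies Hspa1a and Hspa1b. Dnajb1 and Hspa4l had no match, and Hspa8, Hsp90aa1 and Hsp90ab1 had no window. The endoplasmic reticulum stress element, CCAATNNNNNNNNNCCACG on either strand, was held by the windows of Hspa5, Hsp90b1 and Dnajc3, 3.8% of the members' windows against 0.119% of all. Sites of Hspe1, Hsph1 and Hspa5 are shown, as 30 bases each with the matches in capitals, since Hspe1 shares its start region with Hspd1, Hsph1 is among the genes that were higher in library 3, and Hspa5 carries the other element.
Hspe1: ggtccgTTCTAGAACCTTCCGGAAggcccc
Hsph1: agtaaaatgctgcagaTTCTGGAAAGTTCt
Hspa5: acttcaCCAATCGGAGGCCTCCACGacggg
The Hspe1 stretch (chr1:55088053-55088082, plus strand) holds 3 overlapping matches between 89 and 72 bases before the start, inside the region from which Hspd1 runs the opposite way. The Hsph1 stretch (chr5:149636287-149636316, minus strand) holds 2 matches, 37 to 49 bases after the start. The Hspa5 stretch (chr2:34772019-34772048, plus strand) holds 1 match, 65 to 47 bases before the start. All are the GRCm38.p6 reference, which is B6, and the Spret sequence was not analysed here.

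Other genes of the chaperone network also held more calls toward B6 than toward Spret, as autosomal genes did. Of 60 cofactors and regulators listed, 55 were tested, and 25 were called (45.5%, beside 28.4% of autosomal genes). Toward Spret there were 4 (background 7.78%) and toward B6 21 (20.7%), with a median ratio of -0.22 beside -0.13. With centred ratios 5 were called toward Spret (background 13.3%) and 12 toward B6 (13.5%). Among the called genes of highest value, Calr, a lectin chaperone of the endoplasmic reticulum, stood at -0.43 ± 0.05 (limma adjusted p = 3.92e-06). Canx, its membrane-bound relative, stood at -0.28 ± 0.06 (adjusted p = 0.00166, and 0.0519 with centred ratios). Stip1 (HOP), which bridges HSP70 and HSP90, read 688, 701 and 646 from B6 and 495, 385 and 439 from Spret, a ratio of -0.63 ± 0.08 (adjusted p = 1.66e-05). Toward Spret were the disulfide isomerase Pdia4 (0.21 ± 0.06), Nudc (0.38 ± 0.11) and Aarsd1 (0.52 ± 0.12), with adjusted p from 0.00408 to 0.0261. Their calls were lost without library 1 (Pdia4, 0.167, and Aarsd1, 0.0631), without library 2 (Nudc, 0.124) or without library 3 (Pdia4, 0.127, and Nudc, 0.073). Aarsd1 also shares 1250 of its 3052 exon bases with Gm27029 on the same strand, so its values are uncertain.

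The HSP90 cochaperones Ttc4 and Ptges3 (p23), named here after their values were seen, had the widest gaps of the network. Ttc4 read 322, 225 and 277 from B6 and 90, 60 and 87 from Spret, a ratio of -1.79 ± 0.11 (limma adjusted p = 8.37e-09). Ptges3 read 329, 223 and 302 from B6 and 117, 85 and 105 from Spret, at -1.46 ± 0.10 (adjusted p = 3.4e-08). Of the heat shock factors themselves, Hsf1, the main activator, read 111, 111 and 164 against 139, 88 and 185 and was not called (0.05 ± 0.14). Hsf2, a factor active in development, read 173, 180 and 179 from B6 and 125, 107 and 156 from Spret, at -0.47 ± 0.12 (adjusted p = 0.0099), a call lost without library 1 (0.091) and without library 2 (0.0862).

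Several stress-inducible members stood highest in library 3. Summed over both alleles, Hspa1b stood at 163, 107 and 534 in libraries 1, 2 and 3, and Hspa1a at 89, 74 and 305. Library 3 thus exceeded the mean of the other libraries 3.96-fold and 3.74-fold. Hsph1 followed at 2112, 1448 and 3515 (1.97-fold) and Dnajb1 at 1101, 772 and 1562 (1.67-fold). The remaining members at least 1.5-fold higher in library 3 were Hspa14, a ribosome-associated HSP70 relative (1.76-fold), Dnajc27 (1.74-fold) and Dnajb4 (1.64-fold). These 7 genes, named by that fold after the values were seen, are 9.72% of the members, below the 12.4% of autosomal genes. Likewise 38 of the 72 members (52.8%) were highest in library 3, below the 59.7% of autosomal genes, so the members as a whole did not stand out there. Hspa8 was 1.43-fold and Hsp90aa1 1.38-fold higher there.

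Both alleles took part in this. From B6 alone Hsph1 rose from 1033 and 717 to 1649, and from Spret alone from 1079 and 731 to 1866. Of the 12 heat shock factor targets, 8 were highest in library 3, beside the same 59.7%, and their median fold was 1.29 against 1.16 over autosomal genes and 1.07 over the other 60 members. With values taken as shares of the library total, 6 of 12 were highest there, against 33.9%, and Hspa1b, Hspa1a, Hsph1 and Dnajb1 stood at 3.36, 3.16, 1.67 and 1.41 times the mean of the other libraries. Hspd1, Hspe1 and Dnaja1, also targets, stood at 1.08, 0.955 and 0.974 times before that scaling.

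Among the 55 network genes, only 1 was at least 1.5-fold higher in library 3, beside 12.4% of autosomal genes, so the network did not stand out there. It was Hsf1, at 250, 199 and 349. With values taken as shares of the library total, Hsf1 stood at 1.31 times the mean of the other libraries. Bag3, a cochaperone also driven by the heat shock factor, stood at 35, 26 and 35, and Chordc1 at 651, 492 and 599. A single library carries the difference, so it has no test. The choroid plexus markers were highest in library 1 and the pluripotency markers lowest in library 3, and their part in it was not tested.

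**Figure D4:**
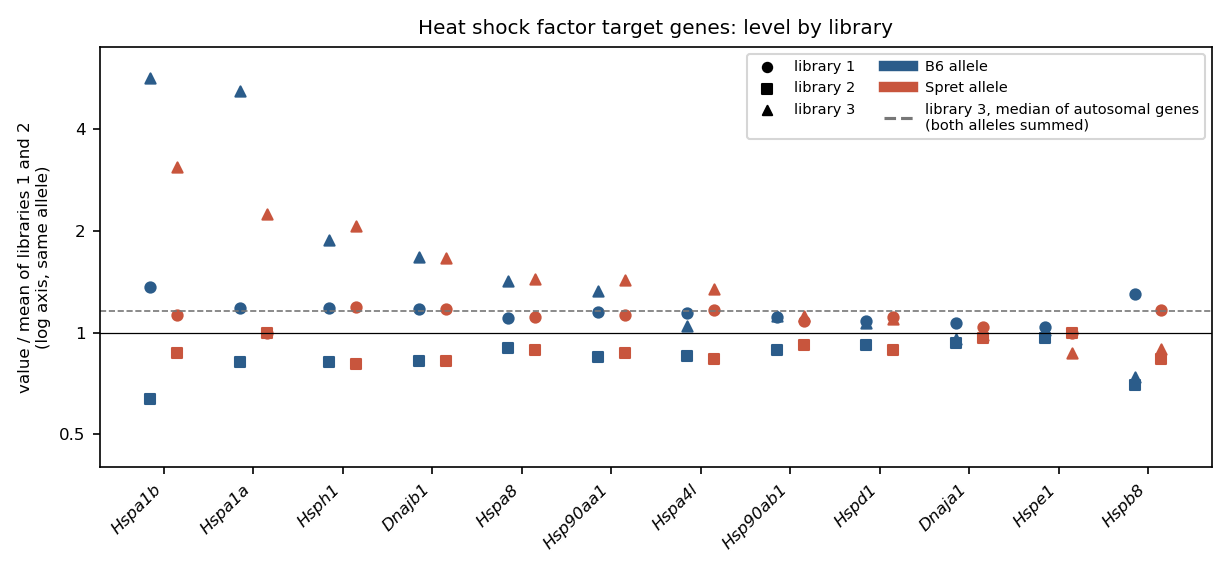
Each allele's value divided by the mean of the same allele in libraries 1 and 2 (log axis), for the 12 measured targets of the heat shock factor. Triangles (library 3) lie above the other symbols for both alleles of Hspa1b, Hspa1a, Hsph1, Dnajb1, Hspa8, Hsp90aa1 and, by little, Hsp90ab1 (1.12-fold with alleles summed). The dashed line marks 1.16, the median of autosomal genes with alleles summed.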

How the data were processed

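RNA of the 3 organoid libraries was depleted of ribosomal RNA before sequencing, per the labels' protocols. The authors deposited 1 table of allele-specific values per gene, a score here: per its name they are normalized counts, and they are rounded to whole numbers. Up to 200, 27, 43 and 0 whole numbers were unused in libraries 1, 2 and 3, as after scaling and rounding, so read-count tests were not used. Per the submitters' processing notes the genome was mm10. The aligner, the assignment to alleles and the counter are not given in the sources used here.

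Genes with a mean of at least 10 over 6 columns, 15985 in all, were tested with limma 3.58.1 (R 4.3.3) on log2(value + 1), with library and allele as terms, an intensity trend and Benjamini-Hochberg adjustment over all of them. The pseudocount understates changes of low genes. Both alleles come from the same RNA, which pairs them: deviations of B6 and Spret values correlated at 0.21, 0.43 and 0.55 within libraries, across genes. The fit was tested on simulated data. Positions and exon lengths came from GENCODE M21 (GRCm38), with RefSeq where it had none, and shared exon bases from GENCODE M21.

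Members and lists were chosen with earlier results of these data known. Named were called members with a summed mean of at least 100, the 3 highest per family, the CCT ring, the Hspd1, Hsp90 and Hspa1 pairs, and of the network Hsf1, Hsf2 and the 3 highest called per direction. Called members under 100 (Dnaja4) were given by name. Outside this rule, and chosen after values were seen, are Hspa4, Hspa5, Hspa14, Hspa1l, Dnajc27, Cct6b, Hspb1, Ttc4, Ptges3, Bag3 and Chordc1, and genes named without a value of their own.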

Additional observations from a re-analysis of the deposited data

How the results depend on the processing

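Depth is that of reads assigned to an allele, so ratios of members with values under about 50 are coarse, and with 3 libraries the test rests on the spread limma borrows across genes. Of the 25 calls, 5 (Cct2, Cct5, Cct6a, Dnajb14 and Hspd1) were kept in each of the 10 alternatives (6.94% of members, beside 3.1% of autosomal genes), and 11 in the 3 fits that leave out a library (15.3% beside 11.6%). Counts of called members fell from 25 to 8 when low genes were left in, to 7 without the intensity trend and to 7 with no replicate block, that is, without pairing alleles by library. That is 11.1%, 9.72% and 9.72% of members beside 4.53%, 11.5% and 7.03% of autosomal genes, whose calls fell too. Toward B6 these settings gave 6, 6 and 7 in place of 17, and toward Spret 2, 1 and 0 in place of 8, with 2 toward Spret at an unadjusted p under 0.05 in the limma fit without the block (2.78% beside 5.55%). Network calls fell from 25 to 4, 5 and 4. With centred ratios 10 members were called toward B6 and 15 toward Spret, beside 13.5% and 13.3% of autosomal genes. The median ratio of the members turned from -0.07 to 0.05, and Hsp90ab1 and Hsp90b1 turned to 0.03 and 0.11. Leaving out 1 library gave 14 to 19 called members, 8 to 16 toward B6 and 3 to 6 toward Spret, 11 to 18 network calls and a median of -0.06 to -0.03. Without library 1 the called members were 15 and the network calls 11, and without library 3 they were 14 and 16. Called members came to 20.8%, 26.4% and 19.4% without libraries 1, 2 and 3, beside 14.4%, 23.5% and 17.6% of autosomal genes. Autosomal calls thus fell too, from 28.4%. Uncalled ratios near 0 also turned when a library was left out: Hsf1 to -0.08 without library 1 (range -0.08 to 0.25, with 0.00 without library 3), Hsp90b1 to 0.05 (-0.07 to 0.05) and Hspb6 to -0.10 (-0.10 to 0.40) without library 2, and Cct4 to -0.04 (-0.04 to 0.04), Cct7 to -0.02 (-0.02 to 0.10), Dnajc6 to -0.02 (-0.02 to 0.11) and Hspb11 to 0.01 (-0.57 to 0.01) without library 3. A fit on fewer libraries has fewer residual degrees of freedom; for the other settings the cause was not tested. A pseudocount of 0.5 or 5 and a limit of 50 kept all counts within 1.5 times.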
